A study of Mus musculus with 2 samples.

Results

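Natural killer (NK) cells were described among immune cells sorted by CD45 from mouse retina and profiled by single-cell RNA sequencing. All mice were of the B6 strain, aged 8 to 10 months, and had microbead-induced glaucoma, in which beads obstruct the outflow of fluid from the eye. One group received PBS and the other the secreted protein Igfbpl1, with 10 mice pooled into 1 library per group. The dose, route and timing of treatment are not given in the sources used here, and no eyes without microbeads were analysed here. Mice were perfused with saline and retinas digested with enzymes before the sort, and only CD45-positive cells entered. A cell was chosen when Ncr1, Klrb1c, Klre1, Klrd1 and Gzma together reached at least 4 UMIs (unique molecular identifiers, each counting 1 captured transcript). It also had under 2 UMIs of Cd3d, Cd3e and Cd3g, and under 15 UMIs of 6 microglial genes per 10000 UMIs of the cell. This rule found 300 of 4385 cells, of which 297 lay in the Igfbpl1 library and 3 in the PBS library. With 1 library per group no difference was tested, and every 95% interval below covers counting error only.

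NK cells are innate lymphocytes that kill stressed, infected or transformed cells without a rearranged antigen receptor. They weigh signals from activating receptors, which work through the adaptors Tyrobp (DAP12), Hcst (DAP10) and Fcer1g, against inhibitory receptors that read MHC class I on the target. They deliver perforin and granzymes from granules and secrete interferon gamma and chemokines. In the retina, as in the brain, few are present at rest, and microglia are the resident immune cells.

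Of the genes in the rule, Klrd1 (CD94, a partner of the NKG2 receptors), Klre1 and Klrb1c (NK1.1) lie in the NK gene complex on mouse chromosome 6. In mm10 the GENCODE M21 annotation puts Klrd1 at chr6:129591782-129598775, Klre1 at chr6:129577905-129585827 and Klrb1c at chr6:128778485-128789215. Ncr1 (NKp46, an activating receptor) is at chr7:4337724-4345164 and Gzma (granzyme A, a granule protease) at chr13:113093825-113100981. The 250 bases before the start of 4 genes are shown because they stand for the receptor, protease and Ly49 genes that the results turn on (RefSeq, build GRCm38.p6, strand of the gene). Capitals mark the RUNX letters TGTGGT or, on the other strand, ACCACA.
Ncr1: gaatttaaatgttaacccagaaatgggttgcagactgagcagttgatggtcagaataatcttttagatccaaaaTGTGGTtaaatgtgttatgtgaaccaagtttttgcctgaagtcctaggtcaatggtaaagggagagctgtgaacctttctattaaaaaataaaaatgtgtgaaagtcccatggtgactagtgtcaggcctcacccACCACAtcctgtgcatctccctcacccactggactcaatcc
Gzma: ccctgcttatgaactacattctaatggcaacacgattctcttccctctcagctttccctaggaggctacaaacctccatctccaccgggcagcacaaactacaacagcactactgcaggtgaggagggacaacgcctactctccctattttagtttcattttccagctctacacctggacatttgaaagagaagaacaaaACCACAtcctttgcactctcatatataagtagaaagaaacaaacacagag
Klra4: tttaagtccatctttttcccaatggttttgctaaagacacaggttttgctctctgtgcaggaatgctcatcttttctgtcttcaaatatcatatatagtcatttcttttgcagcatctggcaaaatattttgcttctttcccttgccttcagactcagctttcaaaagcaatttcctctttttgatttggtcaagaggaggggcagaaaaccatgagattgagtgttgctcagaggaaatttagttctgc
Klra8: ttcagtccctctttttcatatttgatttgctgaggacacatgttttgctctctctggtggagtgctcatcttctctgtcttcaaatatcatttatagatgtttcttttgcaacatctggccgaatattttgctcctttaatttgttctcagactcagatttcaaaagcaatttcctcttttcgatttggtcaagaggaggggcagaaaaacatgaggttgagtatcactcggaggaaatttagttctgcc
These windows are chr7:4337465-4337714 (plus strand), chr13:113100982-113101231 (minus), chr6:130067272-130067521 (minus) and chr6:130129899-130130148 (minus). The Ncr1 window held the RUNX letters at 176 and 41 bases before the start, and the Gzma window at 50 bases before it. Among the other windows searched, those of Klre1, Klrb1c, Xcl1 and Nkg7 held them too. Of all 27025 RefSeq mouse promoters cut to the same length, 14.2% did. The T-box letters TCACACC or GGTGTGA were in the Xcl1 and Nkg7 windows and in 3.31% of all promoters, and the motifs share no bases here. The windows of Klra4 and Klra8, genes of activating Ly49 receptors, held neither and were 84.5% identical to each other over an alignment with 2 gap positions. A match is a description of letters and not a binding site.

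The label could be checked only on genes outside the rule, here Xcl1 and Nkg7, and on how the rule's own genes were divided. It did not hold for all the chosen cells. The 4 MHC class II genes Cd74, H2-Aa, H2-Ab1 and H2-Eb1, which present antigen in dendritic cells, macrophages and B cells, split the 297 cells of the Igfbpl1 library. In 180 cells these genes made up 0 to 23.3 of every 10000 UMIs, with a median of 0. In the other 117 they made up 68.5 to 807, with a median of 462, and only 2 cells fell between 30 and 100. The limit of 50 per 10000 was set after this distribution was seen. The 180 cells are called MHC class II-low members and the 117 MHC class II-high members.

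**Figure D1:**
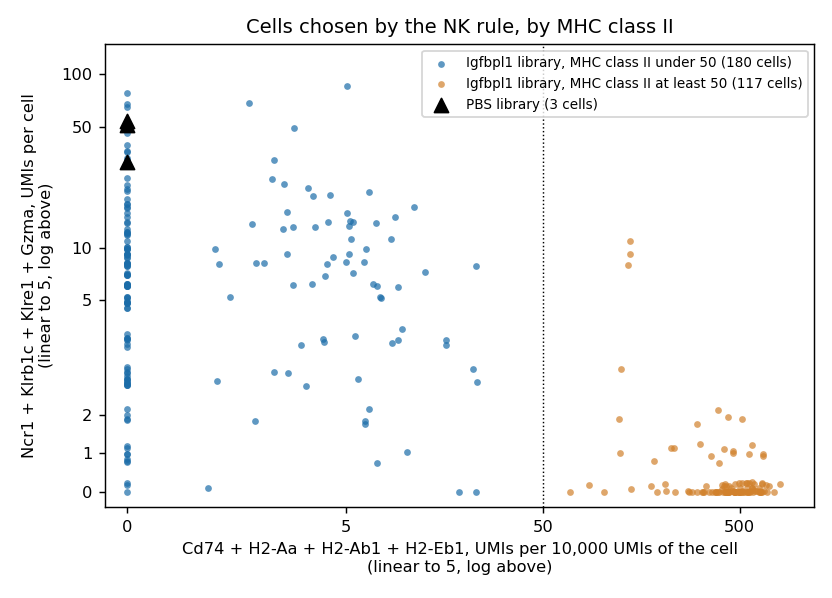
Each point is 1 chosen cell, with its MHC class II UMIs per 10000 UMIs on the x axis and its summed UMIs of Ncr1, Klrb1c, Klre1 and Gzma on the y axis, both linear to 5 and logarithmic above, with small vertical scatter added to the circles. The 180 low cells sit left of the dotted line at 50 and mostly carry several UMIs of the 4 genes, the 117 high cells sit at the right and mostly at 0, and the 3 PBS cells (triangles) are at the left.

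In the MHC class II-low members the genes of the rule, whose sum chose the cells, were spread over all 5. Klrd1 was found in 172 of the 180 cells, Gzma in 132, Klre1 in 126, Klrb1c in 96 and Ncr1 in 88. Per cell, Klrd1 ranged from 0 over a median of 4 to 22 UMIs and Gzma from 0 over a median of 3 to 84. Outside the rule, Nkg7, a granule membrane protein, had a UMI in 165 of the 180 cells and Xcl1 in 126. Most MHC class II-high members had entered the rule through Klrd1, which supplied 93.8% of their UMIs of the 5 genes against 30.7% in the low members. Of the 117 high cells, 94 had no UMI of Ncr1, Klrb1c, Klre1 or Gzma, 3 had at least 4 UMIs of these genes, 8 had Nkg7 and 5 had Xcl1. Of the 223 Xcl1 UMIs in these cells, 202 came from 1 cell. Of the 180 low cells, 6 had no UMI of Ncr1, Klrb1c, Klre1 or Gzma. Few of the high cells had a UMI of Nkg7 or Xcl1, so the label NK is used below for the low cells, and values for all 297 are given beside them. Neither gene is confined to the low cells. Among 206 MHC class II-low T cells, defined below, 77 had a UMI of Nkg7 and 41 of Xcl1.

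Near the threshold the makeup shifted towards the second kind. Of the 30 cells with exactly 4 UMIs of the NK genes, 23 were MHC class II-high, as were 15 of the 23 cells with 5. Just outside the rule, 60 cells had 3 UMIs, and 47 of them were MHC class II-high. A further 84 Igfbpl1 cells and 4 PBS cells reached 4 UMIs but carried 2 or more CD3 UMIs, and 10 Igfbpl1 cells exceeded the microglial limit. Scrublet called 5 of the 297 members doublets, 4 of them MHC class II-high, against 62 of all 3330 cells.

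The chosen cells made up 297 of 3330 cells of the Igfbpl1 library (8.92%, Clopper-Pearson 95% interval 7.97 to 9.94%) and 3 of 1055 of the PBS library (0.284%, 0.0587 to 0.829%). Counting MHC class II-low cells alone, the shares were 5.41% (180 cells) and 0.284% (3 cells). T cells, defined by at least 2 CD3 UMIs, the same microglial limit and fewer than 4 UMIs of the NK genes, numbered 226 and 25. The Igfbpl1 library was larger but shallower, with a median of 2355.5 UMIs per cell against 3433, and 0 cell barcodes were shared. The shares follow the sort, and whether more NK cells or fewer other cells were present per retina cannot be told apart.

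The share of cells with Y-linked transcripts differed between classes of the library. Among low members with either Xist or a Y-linked gene (Ddx3y, Eif2s3y, Kdm5d or Uty) but not both, 3 cells were Y-only and 122 Xist-only (2.40% Y-only, 0.498 to 6.85%). The high members gave 2 and 71 (2.74%), and MHC class II-low T cells 7 and 130 (5.11%). The 70 B cells (at least 2 UMIs of Cd79a, Cd79b and Ms4a1) also held myeloid transcripts, with a UMI of Tyrobp in 36 of them. They gave 33.3% Y-only (18.6 to 51.0%), and cells over the microglial limit gave 43.7% (40.6 to 46.9%). The part of this difference in the comparisons below was not tested. The 3 PBS cells had no Xist UMI, and 1 of them had a Y-linked UMI.

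Expression of the NK cells was set against T cells of the same library, so that both came from 1 pool and 1 preparation. UMIs were summed over cells and given as CPM (counts scaled to a class total of 1000000), and log2 ratios had 10 CPM added to each side. The low members (412252 UMIs, median 2011 per cell) were compared with 206 T cells under the same MHC class II limit (517472 UMIs, median 2076). Of 2903 measured genes, 125 were at least 2-fold higher in the NK cells (4.31%) and 136 at least 2-fold lower (4.68%), with a median log2 ratio of -0.03. For all 297 members against all 226 T cells the counts were 118 higher (4.19%) and 142 lower (5.04%) of 2817, with a median of -0.14. Scaling that comparison to a median of 0 moved the split to 142 higher and 95 lower. Of all 226 T cells, 70 had a UMI of Il17a, Il17f or Trdc. Leaving such cells out of the comparison of the low members gave 144 higher and 109 lower of 2847. The T cells exclude by rule those with 4 or more UMIs of the NK genes. Adding these cells back gave 280 T cells and counts of 111 higher and 90 lower of 2866. Ratios and list counts below leave these cells out unless T cells of any NK gene sum are named. Where both ratios are given for a gene higher in the NK cells, the one with these cells was mostly smaller. For the other genes that second ratio is not shown.

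**Figure D2:**
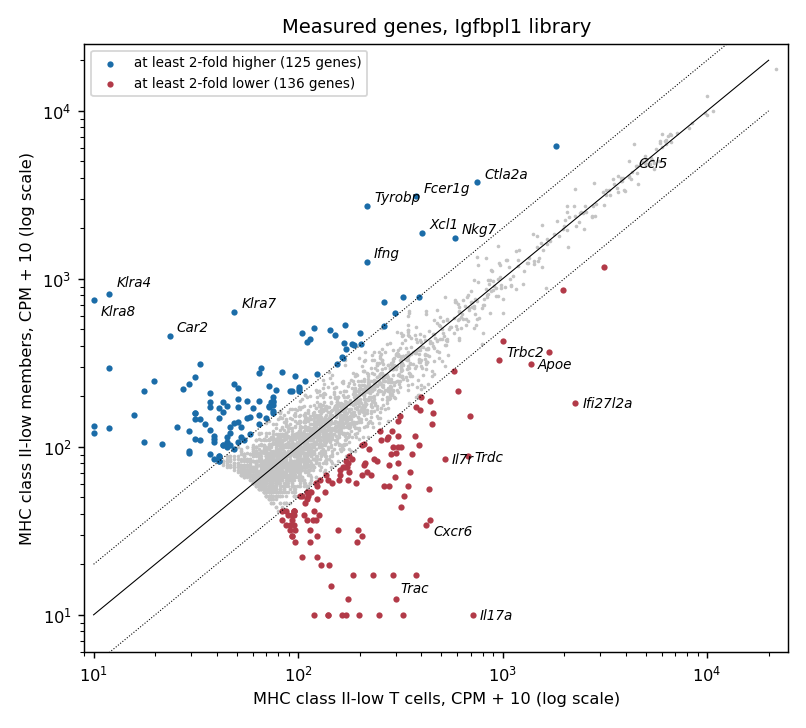
Each point is 1 of 2903 measured genes, with CPM plus 10 in MHC class II-low T cells on the x axis and in MHC class II-low members on the y axis, both logarithmic. Dotted lines mark 2-fold. Klra8, Klra4, Klra7, Car2, Tyrobp and Fcer1g lie far above the diagonal, Il17a, Trac, Cxcr6, Il7r and Ifi27l2a below it, and Ccl5 on it.

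Genes listed as activating receptors stood highest. The sorting into activating and inhibitory lists was not tested here, and single members such as Klrb1b and Klri2 may signal the other way. Of 12 listed, 10 were measured, and 7 were at least 2-fold higher in the NK cells and 0 lower, with a median log2 ratio of 2.78. For all 297 members it was 5 higher and 1 lower of 8 measured, with a median of 2.23. Klra8 (Ly49H, known for recognising a protein of mouse cytomegalovirus) reached 742 CPM in the NK cells and 0 UMIs in the T cells, so it was at least 128-fold higher against a floor of 3 UMIs over the class. It was found in 88 of the 180 cells. Klra4 (Ly49D, which signals through Tyrobp) had 805 CPM against 1.93 CPM, from 1 UMI in the T cells, a 417-fold ratio (74.3 to 16509). Klrb1b had 286 CPM and Klrb1f 235 CPM, against 1.93 and 9.66 CPM in T cells. Klrk1 (NKG2D, a receptor of stress-induced ligands) was 4.51-fold higher (3.35 to 6.17) at 497 against 110 CPM. Styk1, named for its ratio and not from the list, had 124 CPM and 0 UMIs in T cells, at least 21.3-fold higher. Against T cells of any NK gene sum, Klra4 was 46.7-fold (27.5 to 86.4), Klrb1b 38.7-fold (17.3 to 108) and Klra8 603-fold (107 to 23887) higher, the last on 1 UMI in the T cells. Styk1 was 14.4-fold higher (6.49 to 37.5) there.

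Genes listed as inhibitory receptors followed the same direction. Of 19 listed, 7 were measured, with 5 higher and 0 lower in the NK cells and a median log2 ratio of 2.10. All 297 members gave the same counts and a median of 1.63. Klra7 (Ly49G) stood at 628 against 38.6 CPM, a 16.3-fold ratio (10.3 to 27.1), and was found in 50.6% of the NK cells. Klra9 (Ly49I) was 12.1-fold higher (6.11 to 27.4) at 211 CPM, and Klri2 26.4-fold higher (9.92 to 99.0) at 204 CPM. Klrc1 (NKG2A, the inhibitory partner of CD94) was 4.89-fold higher (3.20 to 7.69) at 264 CPM. Klrg1, an inhibitory receptor of late NK cells, had 5 UMIs in the NK cells (12.1 CPM) and 3 in the T cells. With T cells of any NK gene sum, Klra7 was 3.57-fold higher (2.90 to 4.41), Klrc1 2.86-fold (2.11 to 3.89), Klra9 5.53-fold (3.63 to 8.62) and Klri2 10.3-fold (6.01 to 18.9).

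Some of these genes are near-copies of each other. Among 60-base windows of the last 500 transcript bases, where 3' reads fall, Klrc1 shared 50.8% with Klrc2, Klra9 shared 36.7% and Klra7 23.1% with other Klra genes or pseudogenes. For Klra8 and Klra4 the shared part was 6.35% and 2.49%, and for Klrd1, Klrk1, Klre1, Klrb1b and Klrb1f it was 0%. Values of Klrc1, Klra9 and Klra7 are therefore uncertain by the reads that could be split or dropped.

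Adaptors divided by type. Tyrobp reached 2717 CPM (2560 to 2881) in the NK cells against 207 CPM (169 to 250) in T cells, a 13.1-fold ratio (10.8 to 16.2). Fcer1g stood at 3083 against 369 CPM, an 8.35-fold ratio (7.17 to 9.78). Hcst stood at 975 and 837 CPM (1.17-fold, 1.01 to 1.34). Cd247, the zeta chain that NK and T cells can both use, was lower in the NK cells at 41.2 against 319 CPM, a ratio of 0.129 (0.0736 to 0.213). Of 10 measured adaptor and signalling genes, Tyrobp and Fcer1g were higher, Cd247 was lower and the median log2 ratio was 0.23. Over all 297 members it was 3 higher and 3 lower of 12, with a median of 0.02. Tyrobp and Fcer1g are also myeloid genes, with 2182 and 1996 CPM in the MHC class II-high members.

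Among granule and death ligand genes, 6 of 12 measured were at least 2-fold higher and 0 lower, with a median log2 ratio of 1.01. Over all 297 members it was 2 higher and 0 lower of 10, with a median of 0.18. Nkg7 was 3.05-fold higher (2.66 to 3.51) at 1746 CPM, and Ctsw, a granule protease, stood at 767 against 317 CPM. Prf1, which encodes perforin, was 6.96-fold higher (3.63 to 14.7) but low in level, at 148 against 21.3 CPM. Gzmb (granzyme B) stood at 327 and 189 CPM, a ratio of 1.73 (1.32 to 2.27). Gzma, a gene of the rule, stood at 3389 CPM. The granzyme inhibitors Serpinb6b and Serpinb9 were 6.96-fold (3.63 to 14.7) and 4.48-fold (2.73 to 7.66) higher, and Serpinb6b 4.29-fold (2.70 to 6.97) against T cells of any NK gene sum.

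Among secreted factors, Ifng stood out. It reached 1252 against 207 CPM, a 6.05-fold ratio (4.91 to 7.53), with UMIs in 103 of 180 NK cells and up to 29 in a single cell. Xcl1, a chemokine that attracts XCR1 dendritic cells, was 4.76-fold higher (4.07 to 5.58) at 1875 CPM. Counting T cells of any NK gene sum the ratios were 3.43 (2.97 to 3.98) for Ifng and 2.31 (2.08 to 2.56) for Xcl1. Ccl5 stood at 4310 CPM in the NK cells and 4263 CPM in the T cells (1.01-fold, 0.949 to 1.08). Ccl3 and Ccl4 had ratios of 1.16 (0.856 to 1.57) and 0.994 (0.823 to 1.20), and Ltb stood at 0.514 (0.426 to 0.617). Of 7 measured, Ifng was the 1 gene past 2-fold and the median log2 ratio was 0.20. Over all 297 members it was 1 higher and 1 lower of 6, with a median of 0.21. Xcl1 is counted with the marker genes, where it was the 1 gene outside the rule.

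**Figure D3:**
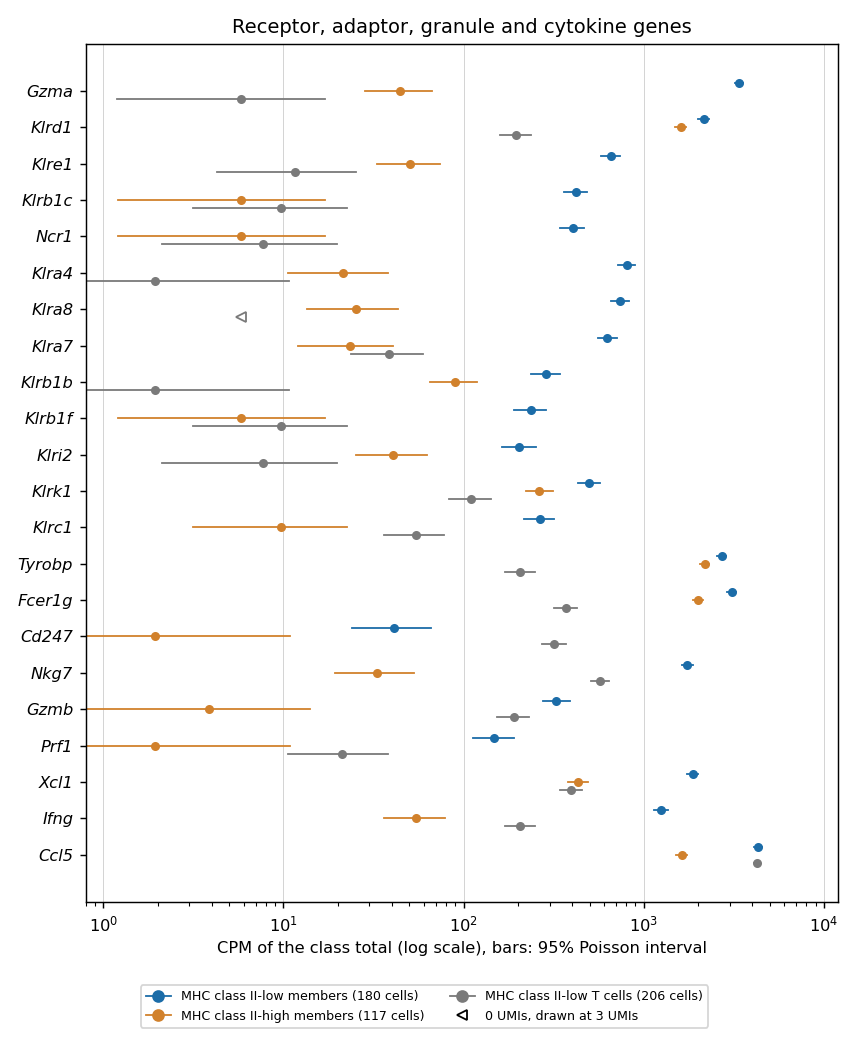
CPM with Poisson 95% intervals on a logarithmic axis, for 22 genes in the 180 low members (blue), the 117 high members (orange) and 206 T cells (grey); an open marker stands for 0 UMIs and is drawn at 3 UMIs, and some intervals run past the left edge. Blue lies right of grey for most receptors and granule genes and left of it for Cd247, while orange lies close to blue for Klrd1, Tyrobp and Fcer1g and far to its left for Gzma, Ncr1, Nkg7 and the Klra genes. Klrd1, Gzma and Ncr1 are in the rule that chose both groups of members.

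The nearest relatives by function in the library are CD8 T cells, of which 50 lay under the MHC class II limit (132498 UMIs, at least 1 UMI of Cd8a or Cd8b1). Like the T cells, they exclude cells with 4 or more UMIs of the NK genes. Against them Nkg7 was 1.44-fold higher in the NK cells (1.21 to 1.72) and Ctsw 1.75-fold (1.32 to 2.36). Ccl5 was lower in the NK cells, 4310 against 9668 CPM, a ratio of 0.446 (0.415 to 0.479). Ifng was 3.95-fold higher (2.88 to 5.55), Gzmb 3.94-fold (2.14 to 8.09), Prf1 2.80-fold (1.28 to 7.26) and Xcl1 6.54-fold (4.72 to 9.31). Klra7 was 41.6-fold higher (11.4 to 346) on 2 UMIs in the CD8 T cells. Ccl3 and Ccl4 were lower in the NK cells here, with ratios of 0.512 (0.360 to 0.733) and 0.448 (0.360 to 0.558). Eomes was 2.12-fold (1.08 to 4.63) higher, and Tbx21 stood at 1.79 (0.869 to 4.13) and Runx3 at 0.951 (0.686 to 1.34). Pkm turned direction at 1.38 (0.684 to 3.08), and Il2ra stood at 0.429 (0.0725 to 2.93) on few UMIs. With this comparison 200 genes were at least 2-fold higher and 154 lower of 2821. Adding back the CD8 T cells of any NK gene sum gave 61 cells (188470 UMIs), with 173 genes higher and 113 lower of 2801. Klra7 was then 5.38-fold higher (3.48 to 8.74), Xcl1 2.39-fold at 785 CPM in these T cells, and Gzmb 2.47-fold (1.60 to 3.95). Prf1 stood at 148 CPM in the NK cells and 47.8 CPM in these T cells. Ifng was 3.42-fold (2.66 to 4.46) and Nkg7 1.22-fold (1.06 to 1.41) higher, and Ccl5 stood at 0.516 (0.482 to 0.552). Il2ra stood at 0.166 (0.0386 to 0.561). Ccl3 stood at 0.702 (0.496 to 1.00) and Ccl4 at 0.596 (0.481 to 0.739), both nearer to equal than without these cells.

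Cytokine receptors sorted NK cells from T cells in both directions. Il2rb, the chain shared by the IL-2 and IL-15 receptors, was 2.56-fold higher (1.95 to 3.37) at 405 CPM. Il7r and Il2ra were lower, at 75.2 against 510 CPM (ratio 0.147, 0.0982 to 0.214) and 9.70 against 131 CPM (0.0738, 0.0196 to 0.198). Of 11 measured, 3 were higher and 2 lower, with a median log2 ratio of 0.46, and over all 297 members 1 and 2 of 13, with a median of -0.18. Among 17 chemokine receptor and adhesion genes 4 were higher and 3 lower, with a median of 0.12, against 0 and 2 of 16 and -0.02 over all members. Of all genes measured for the low members, 4.31% were higher and 4.68% lower. Itgb1, an integrin chain, was 2.04-fold higher (1.70 to 2.45) at 771 against 379 CPM. Ccr2, a receptor of inflammatory monocytes and some NK cells, stood at 320 against 160 CPM. Cxcr6, which retains lymphocytes in tissue, was lower at 24.3 against 412 CPM, a ratio of 0.0589 (0.0279 to 0.111).

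Of 23 transcription factors, 4 were higher and 4 lower, with a median log2 ratio of 0.22, against 4.31% and 4.68% of all measured genes. Over all 297 members it was 1 and 7 of 20, with a median of -0.38. Eomes, which with Tbx21 directs NK development, was 5.18-fold higher (2.96 to 9.58) at 160 against 30.9 CPM. Tbx21 (T-bet) was 2.85-fold higher (1.70 to 4.95) at 121 CPM, Irf8 5.11-fold (3.38 to 7.96) and Stat4 2.22-fold (1.71 to 2.90). Ikzf2 and Rora were lower, with ratios of 0.145 (0.0865 to 0.231) and 0.253 (0.162 to 0.382). Tcf7 stood at 114 and 96.6 CPM (1.18-fold, 0.775 to 1.79). Runx3, a RUNX factor of cytotoxic lymphocytes, stood at 359 CPM and 1.51-fold (1.18 to 1.93).

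Markers of NK stages gave a mixed picture. Itga2 (CD49b), carried by conventional NK cells, had 39 UMIs in the NK cells and 2 in the T cells (24.5-fold, 6.34 to 209), and it was 6.98-fold higher (3.51 to 15.1) against T cells of any NK gene sum. Itgam (CD11b) had 18 and 12 UMIs, a ratio of 1.88 (0.858 to 4.29). Itga2 and Itgam fell under the mean of 50 CPM for a measured gene and are outside the counts below. Cd27, carried by less mature NK cells, was 1.98-fold higher (1.08 to 3.73) at 72.8 CPM. Ctla2a, an inhibitor of cysteine proteases, stood at 3738 against 742 CPM (5.04-fold). Cd7 was 5.26-fold higher (3.24 to 8.92) at 213 CPM, and 1.91-fold (1.40 to 2.58) against T cells of any NK gene sum. Of 6 measured mature NK genes 1 was higher and 2 lower (median log2 ratio 0.31), and of 8 immature NK genes 2 were higher and 1 lower (0.07). All 297 members gave 0 and 2 of 5 (-0.71) and 2 and 2 of 7 (-0.63). Ly6c2 was among the lower mature genes of the low members, and Ltb of the immature list was lower as given above. Itga1 (CD49a), a marker of type 1 innate lymphoid cells (ILC1), had a ratio of 2.05 (1.12 to 3.84), or 1.22 (0.754 to 1.95) with T cells of any NK gene sum. The ILC1 list had 0 higher and 5 lower of 9, with a median of -1.84. Cxcr6, Il7r and Rora, given above, were among its lower genes. The part of T cells with Il17a, Il17f or Trdc in these values was not tested. Over all members that list had 0 and 4 of 7, with a median of -1.49.

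Most measured T lineage genes were lower in the NK cells than in the T cells. The T lineage list summed to 1562 CPM in the NK cells, 4928 CPM in the T cells and 158 CPM in B cells. Of 13 measured T lineage genes, 9 were at least 2-fold lower and 0 higher, with a median log2 ratio of -1.68, and 11 of 13 over all 297 members (-2.36). CD3 absence chose these cells, so T receptor genes are partly fixed by the rule. Trac had 3 UMIs in the NK cells against 145 in T cells, while Cd28 stood at 136 against 124 CPM. Trbc1 was at 294 against 369 CPM (ratio 0.795, 0.628 to 1.00), while Trbc2 was at 318 against 953 CPM (0.334, 0.273 to 0.405), and 14.3% and 16.1% of their windows were shared with each other. Trdc had 32 UMIs (77.6 CPM), a ratio of 0.117 (0.0786 to 0.168). Il17a, Il22 and Cd163l1 had 0 UMIs in the NK cells and 365, 80 and 163 in T cells, so they were at least 96.9-fold, 21.2-fold and 43.3-fold lower against the floor of 3 UMIs. The list of type 2 and type 3 innate lymphoid genes gave 0 higher and 2 lower of 3, and the same of 2 over all members. The lower genes were Il17a and Il22, while Gata3 stood at 58.2 and 58.0 CPM in the NK and T cells.

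Further genes past 2-fold included Car2 (carbonic anhydrase 2), found in 95 of the 180 NK cells, at 446 against 13.5 CPM, a ratio of 33.0 (15.7 to 83.2). Cited4 and Samd3 were 13.0-fold (7.17 to 25.8) and 11.8-fold (6.30 to 24.3) higher. Against T cells of any NK gene sum, Car2 was 15.8-fold (10.2 to 25.5) and Samd3 4.23-fold (2.97 to 6.09) higher. Itgax (CD11c) was 25.1-fold higher (8.19 to 125) at 146 CPM, and 114 CPM in the MHC class II-high members. Igf1r, the insulin-like growth factor 1 receptor, had 2 UMIs in the NK cells (4.85 CPM) and 44 in the T cells (85.0 CPM), a ratio of 0.0571 (0.00670 to 0.219). It fell under the mean of 50 CPM for a measured gene and is outside the counts of genes past 2-fold. Igfbpl1 itself was listed in neither library.

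Interferon response genes were lower in the NK cells, with 6 of 11 measured at least 2-fold lower, 0 higher and a median log2 ratio of -1.02. Over all 297 members it was 2 lower of 14, with a median of -0.27. Ifi27l2a was at 172 against 2255 CPM, a ratio of 0.0764 (0.0592 to 0.0971), and at 1762 CPM in the MHC class II-high members. Isg15 stood at 0.298 (0.183 to 0.469). Of 16 immediate early genes 4 were higher and 0 lower (median 0.53), and of 12 heat shock genes 1 was higher and 0 lower (0.38). Of all 2903 measured genes 4.31% were higher and 4.68% lower. Hspa1a, which heat and cell handling raise, had 3706 CPM in the NK cells and 2794 CPM in the T cells. All members gave 3 of 20 immediate early genes (0.57) and 0 of 12 heat shock genes (0.15). Of 6 cell cycle genes 0 were past 2-fold in either direction (-0.11), as for the 5 over all members (-0.32). Of 8 glycolysis genes 2 were lower (-0.63), Pkm at 0.391 (0.271 to 0.554) and Eno1 at 0.471 (0.317 to 0.686), against 1 of 8 over all members (-0.54).

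Transcripts of other cell types moved with these comparisons. The 15 microglial markers include the 6 genes that the rule limits in each of these classes. Together the 15 summed to 1465 CPM in the NK cells, 2464 CPM in the T cells and 9977 CPM in the MHC class II-high members. Of them 8 were measured, with 0 higher and 5 lower in the NK cells (median log2 ratio -1.15), and 1 and 5 of 9 over all members (-1.08). The 11 listed monocyte and neutrophil markers summed to 1327, 2383 and 6317 CPM in the same order, with 1 higher and 3 lower of 5 (-1.73), and 2 and 3 of 6 over all members (-0.33). The dendritic cell and MHC class II list summed to 609, 908 and 43714 CPM. The list includes the 4 MHC class II genes whose limit divided these classes, so this gap is partly fixed by the choice. It had 0 higher and 1 lower of 1 measured (-1.24), but 5 higher of 6 over all members (2.41). B cell markers summed to 112, 164 and 124 CPM, with Cd79a, Igkc and 4 others at 0 UMIs in the NK cells. B cell and retinal lists had 1 measured gene each, neither past 2-fold (0.63 and -0.26; 0.57 and -0.19 over all members), and red cell and platelet genes had 0. The part of these transcripts in the gene ratios was not tested.

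To compare detection at equal depth, cells were thinned to 1000 UMIs each, with the 70 B cells (median 1659 UMIs) as the class that should lack NK genes. Before thinning, 36 of these B cells had a UMI of Tyrobp and 33 of Fcer1g, so the class also held myeloid transcripts. Gzma, which is in the sum that chose the NK cells and limited the T cells, is given as a description. It was then detected in 65.6% of the NK cells (58.1 to 72.5%), 0.485% of T cells and 0% of B cells, where the interval for 0 of 70 reaches 5.13%. Without thinning the shares were 73.3%, 1.46% and 0%. Nkg7 was found in 79.4% (72.8 to 85.1%) against 27.2% and 0%, or 91.7%, 37.4% and 0% unthinned. Ifng was found in 40.6% (33.3 to 48.1%) against 14.1% and 0%. Prf1 reached 16.7% (11.5 to 22.9%), Gzmb 18.3% (13.0 to 24.8%) and Eomes 17.8% (12.5 to 24.2%), with 1.46%, 6.31% and 3.40% in T cells and 0% in B cells. Ncr1 and Klrb1c, also of the rule, were each found in 33.9% (27.0 to 41.3%). Mki67, a gene of dividing cells, was found in 0.556%.

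**Figure D4:**
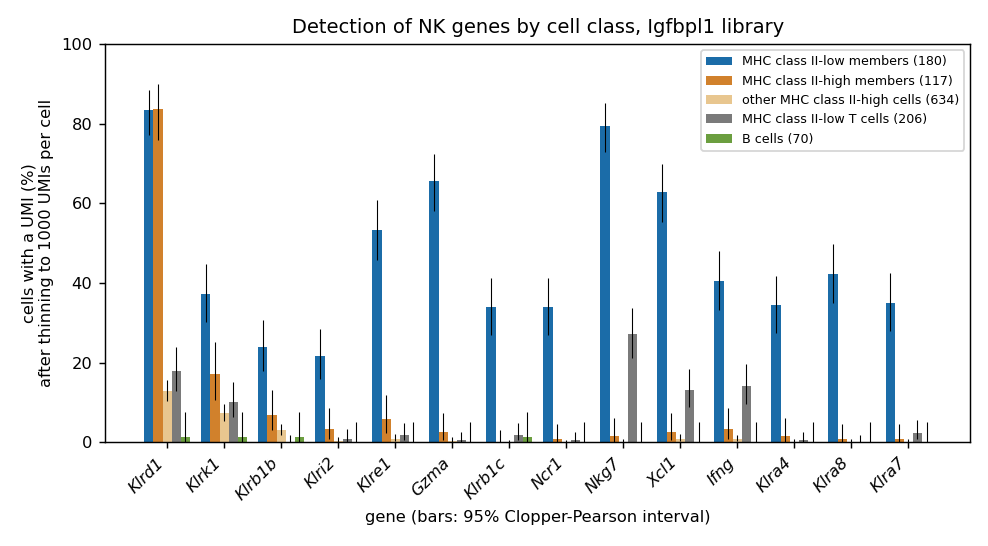
Bars give the percentage of cells with a UMI after thinning to 1000 UMIs per cell, with Clopper-Pearson 95% intervals, for 14 genes in 5 classes of the Igfbpl1 library. Klrd1 is at 83.3% and 83.8% in low and high members. It is in the rule and brought in most high members, so this likeness partly follows from the choice. Gzma and Ncr1, also of the rule, and Nkg7, Xcl1, Ifng and the Klra genes are at most 3.42% in the high members.

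A UMI of each Ly49 receptor was found in part of the NK cells, and 0 UMIs do not show that a cell lacks the transcript. After thinning, Klra8 was detected in 42.2% (34.9 to 49.8%), Klra7 in 35.0% (28.1 to 42.4%) and Klra4 in 34.4% (27.5 to 41.9%). T cells had 0%, 2.43% and 0.485% and B cells 0% of each. Without thinning the NK cell shares were 48.9%, 50.6% and 39.4%. Klra4 was found in 39 of the 76 cells with Klra8 (51.3%) and in 22.1% of the 104 without. A total of 81 cells showed neither. Klra4 or Klra8 had a UMI in 30.8% of the 39 cells with a UMI of Il7r, Inpp4b, Tmem176a, Tmem176b or Rora, and in 61.7% of the 141 others. These genes were picked after the same cells had been clustered, and the difference was not tested. Gzma and Xcl1 were found together in 72 cells and neither in 21, with Gzma in 63.7% of Xcl1 cells and 68.7% of the rest. The cells were chosen partly on Gzma, which bears on these shares. These are counts within 1 library, and cells are not replicates.

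The MHC class II-high members were described apart. Their medians were 3825 UMIs and 1339 genes per cell, against 2011 UMIs and 957.5 genes in the low members. Of 2669 measured genes, 448 were at least 2-fold higher in the low members (16.8%) and 273 at least 2-fold lower (10.2%), with a median log2 ratio of 0.23. Cst3, an inhibitor of cathepsins abundant in dendritic cells and microglia, had 7541 CPM against 798 CPM. Ifitm1 had 2423 against 50.9 CPM, Napsa 687 against 55.8 CPM and Plbd1 654 against 2.43 CPM. Cd209a, a lectin of dendritic cells derived from monocytes, had 169 against 14.6 CPM and was found in 33 of the 117 cells. No cell type name is given to these cells.

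They were next compared with 634 other cells of the library over the same MHC class II limit that reached fewer than 4 UMIs of the NK genes and were not T or B cells or over the microglial limit (median 3497.5 UMIs). Klrd1, which chose the high members, was present in the others as well, with 126 CPM (113 to 141) against 1606 CPM, and in 28.4% of cells. Klrk1, the neighbouring gene at chr6:129610323-129623864, was not in the rule and had 264 CPM (221 to 312) against 84.0 CPM (72.9 to 96.3). After thinning Klrk1 was detected in 17.1% of the high members (10.8 to 25.2%), 7.26% of the other cells (5.36 to 9.56%) and 1.43% of B cells. Klrb1b had 89.2 CPM (65.3 to 119) against 41.2 CPM (33.6 to 50.1), and Klri2 40.7 CPM (25.2 to 62.3) against 5.71 CPM (3.12 to 9.58). Klra4, Klra8 and Klra7 were at 25.2 CPM or less in the high members. Ifitm1 was at 2423 against 500 CPM and Napsa at 687 against 359 CPM, while Apoe was lower, at 2957 against 15706 CPM. Lyz2, a macrophage and monocyte gene, was at 892 against 3664 CPM and had a UMI in 34 of the 117 cells.

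The PBS library held 3 chosen cells, with 4165, 2808 and 1885 UMIs and 36, 51 and 54 UMIs of the 5 rule genes. All 3 had 0 CD3 UMIs and 0 MHC class II UMIs, which is below the MHC class II limit. Gzma had 19, 43 and 42 UMIs in them, which is 45.6, 153 and 223 per 10000 UMIs of the cell. The low members of the Igfbpl1 library had a median of 17.2 per 10000 and a highest value of 425, and 43, 11 and 5 of the 180 reached the value of each PBS cell. Ccl5 had 82, 89 and 87 UMIs, or 197, 317 and 462 per 10000, against a median of 25.4 and a highest value of 536. Of the 180 cells, 11, 2 and 1 were at or above these values.

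Receptors in the 3 cells were uneven. Klrd1 had 5, 0 and 0 UMIs, Klre1 7, 2 and 5, Klrb1c 2, 3 and 6, and Ncr1 3, 3 and 1. Klra4 had 2, 10 and 11 UMIs, and 67, 14 and 5 of the 180 low members reached the per 10000 values of the 3 cells. Klra9 had 0, 5 and 2 UMIs and Xcl1 14, 0 and 0. Nkg7 (5, 6 and 6 UMIs), Ifng (3, 4 and 1) and Tyrobp (18, 11 and 7) were present in all 3, and Ccl4 in none. Klra8, Gzmb and Eomes are not listed for the PBS library and counted as 0. With 3 cells in 1 library, the values of the libraries are set side by side as a description with no test. Ccl5 made up 29126 CPM in the 3 cells and 4310 CPM in the 180, and Gzma 11741 and 3389 CPM.

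**Figure D5:**
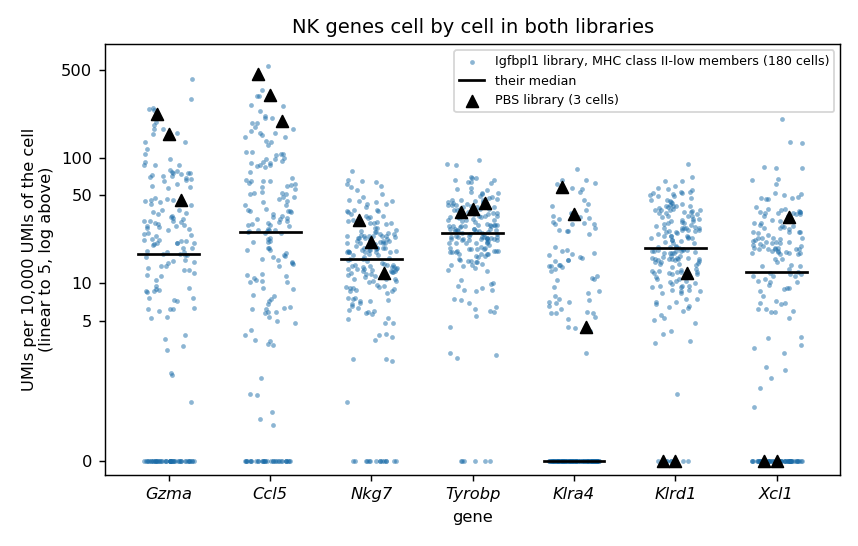
UMIs per 10000 UMIs of the cell for 7 genes, on an axis linear to 5 and logarithmic above, with each of the 180 low members of the Igfbpl1 library as a small point, their median as a line and the 3 PBS cells as triangles. The triangles lie above the line for Gzma, Ccl5, Tyrobp and Klra4, around it for Nkg7, and at 0 in 2 of 3 cells for Klrd1 and Xcl1.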

How the data were processed

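The authors deposited UMI counts for each gene and cell barcode of both libraries, without normalisation. Per the submitters' processing notes, Cell Ranger 3.1 and mm10 were used, and how barcodes were filtered is not stated there. Cells had at least 1003 (PBS) and 1001 (Igfbpl1) UMIs, with 15579 and 17273 genes listed, and an unlisted gene counted as 0. The libraries held 3795008 and 9463631 UMIs, and 3 UMIs of the low members' total equal 7.28 CPM.

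Members and lists were chosen with earlier results of these data known. The MHC class II limit, the other MHC class II-high cells and the T cells and CD8 T cells of any NK gene sum were chosen after the values were seen. A gene was measured with a mean of 50 CPM over both classes and 20 UMIs in all. Genes of the rule stayed out of counts of genes, as did the 4 MHC class II genes wherever the low members were compared. Ratios have conditional binomial, CPM Poisson and shares Clopper-Pearson 95% intervals (scipy 1.17.1). The text names up to 15 genes a side, ranked by ratio among those past 2-fold with 50 UMIs. It adds the 4 highest and 2 most different members of each of 25 lists, and a fixed set of NK and T cell genes. Mki67, Klrc2, Ppp1r14b, Emg1 and S100a4 were added after their values were seen. Thinning used seed 1, and the scripts were tested on simulated counts. Alternatives changed the limits of the rule, doublets (Scrublet in scanpy 1.11.5), the T cells, the CPM added, the minimum and the scaling. Python 3.11.15, pandas 2.3.3, numpy 2.4.6 and matplotlib 3.10.9 were used.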

Additional observations from a re-analysis of the deposited data

How the results depend on the processing

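No paired analysis was possible because each group is 1 library. The share of chosen cells in the Igfbpl1 library, 8.92%, became 10.7% with at least 3 UMIs of the NK genes, 7.33% with at least 6 and 4.74% with the rule applied after thinning to 1000 UMIs. Settings chosen after seeing the data gave 4.17% with Klrd1 left out of the sum and 5.41% under the MHC class II limit, while the PBS share stayed at 0.284% in both. The MHC class II-low portion of the members, 60.6%, became 54.1%, 67.6% and 89.2% under the first 3 settings, 44.1% among cells of at least 2000 UMIs and 97.8% with Klrd1 left out. Limits of 30 and 100 per 10000 gave 60.6% and 61.3%.

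For all members over T cells, the 118 genes higher and 142 lower became 180 and 231 with CD8 T cells only, 72 and 67 with 50 CPM added and 298 and 347 with no minimum CPM. The other settings stayed within 1.5 times for both counts. For the low members, the 125 higher and 136 lower became 200 higher with CD8 T cells only, 68 and 79 with 50 CPM added, and 90 lower with T cells of any NK gene sum.

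Of the log2 ratios of 169 genes over all members, those that changed sign are as follows. Leaving out Klrd1 kept 3 of the 117 MHC class II-high and 136 of the 180 low members, and the MHC class II limit kept the 180 low members and the T cells under it. Leaving out Klrd1 gave Ifitm6 -0.40, Rnase6 -0.70, H2-Oa -1.36, H2-DMb2 -0.73, Cfp -0.45, Plbd1 -1.15, Atf3 -0.60, Zfp36 -0.26, Cst3 -0.89, Ms4a4c -1.03, Cd74 -1.98, H2-Eb1 -1.95, H2-Ab1 -2.23, H2-Aa -2.04 and Siglech -1.22. The MHC class II limit gave Rnase6 -0.25, H2-Oa -1.03, H2-DMb2 -0.25, Cfp -0.25, Plbd1 -0.35, Cst3 -0.0708, Ms4a4c -0.86, Cd74 -0.24, H2-Eb1 -1.03, H2-Ab1 -0.27 and H2-Aa -0.81. CD8 T cells only gave Trdc 2.19, Trdv4 1.61, Areg 1.06, Pkm 0.59 and Tnfrsf4 0.21. T cells with no UMI of Il17a, Il17f or Trdc gave Trdc 2.19 and Trdv4 0.40, where the choice of cells removes Trdc. Beyond these changes in the cells compared, the cause was not tested.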

Other observations

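Clustering the 180 MHC class II-low members alone (Leiden method, resolution 0.5) gave 3 sub-clusters, described by their leading genes without a name or a test. The genes that lead a sub-cluster also formed it. Sub-cluster 2 (75 cells) was led by Klra4, at 1545 CPM against 318 CPM in the other cells, Klra8, at 1380 against 322 CPM, and Zeb2, a factor of late NK maturation, at 287 against 72.4 CPM. Eomes was at 250 against 101 CPM there. Sub-cluster 1 (43 cells) was led by Cst3, Inpp4b, S100a4, Tmem176b and Il7r, with Inpp4b at 612 against 115 CPM and Il7r at 198 against 27.0 CPM. It had less Gzma, at 655 against 4459 CPM, and more Klrc1, at 483 against 179 CPM, and Ltb, at 690 against 287 CPM. Ifng was at 1939 against 982 CPM and Ccl5 at 4198 against 4355 CPM in the same cells. Cst3, described above as abundant in dendritic cells and microglia, was at 1914 against 361 CPM in them. The part of transcripts of other cell types in this sub-cluster was not tested.

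Sub-cluster 0 (62 cells) was led by Ppp1r14b, Emg1 and Gzmb, the last at 589 against 204 CPM. Its cells had a lower median of 1689.5 UMIs, against 2303 and 2086 in sub-clusters 1 and 2, and ribosomal protein genes took 33.1% of its UMIs, against 27.6% and 27.8%. Prf1 was at 151 against 147 CPM there. Depth and ribosomal content thus moved with this sub-cluster, and their part in it was not tested.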
